A study of Homo sapiens with 6 samples.

Results

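The late and cytosolic iron-sulfur cluster delivery genes are 10 genes taken by symbol from the 60609 genes listed for each library: ISCA1, ISCA2, IBA57, NFU1, BOLA3 and NUBPL, whose products act in the mitochondrion, and NUBP1, CIAO1, CIAPIN1 and MMS19, whose products act in the cytosol. All 10 symbols matched 1 gene each and all 10 passed the filter on low counts, which left 20725 genes. The libraries were made from OCI-AML5, an established line of human leukemic myeloid cells that was grown with GM-CSF. There were 3 libraries from cells exposed to the vehicle DMSO for 24 hours and 3 from cells exposed to 1 μM S767, a small molecule, for the same time. The study profiled these cells to learn how S767 acts on them, and it is 1 line at 1 dose and 1 time.

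Iron-sulfur clusters are cofactors of enzymes of respiration, lipoic acid synthesis, DNA replication and DNA repair. They are built on the scaffold ISCU in the mitochondrial matrix. Late-acting proteins of the matrix then convert them to the larger 4Fe-4S form and hand them to mitochondrial enzymes, while a separate cytosolic machinery, the CIA pathway, assembles clusters for proteins of the cytosol and nucleus.

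Each library held between 149994700 and 258029564 counts on genes, and the 10 genes had between 1743 and 34267 counts in a library. Libraries with the same replicate number deviated together from their group means, with a correlation of 0.754 to 0.872 across 6191 well expressed genes, against -0.623 to -0.241 for libraries with different numbers. Taking deviations from group means makes positive same-number values force negative ones among the other pairs, so the contrast adds no separate evidence. The labels do not say what a number stands for. Fold changes are therefore given from edgeR's quasi-likelihood test without a term for the number and, where named, with it as a block. Of 8 myeloid markers, 6 reached 1 TPM (a level scaled for transcript length to the same total in each library) throughout, KIT was below 1 TPM in all libraries and CD34 ranged from 0.61 to 2.65 TPM. Among the 6, CSF2RA had 2.9 to 3.89 TPM by the RSEM estimate but 0 gene counts in each library. The summed TPM of the 8 was 660 to 1054 with DMSO and 661 to 1063 with S767. Its largest parts were LYZ, at 244 to 597 TPM over the libraries, and SPI1, at 214 to 258.5 TPM. The 8 markers of other lineages were below 1 TPM in each library, with CD3E and PF4 at 0.

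None of the 10 delivery genes passed a test for a difference between S767 and DMSO in edgeR on the TMM-scaled gene counts of all 6 libraries. In edgeR without the block, 0 of 10 had a P under 0.05, where 3.53% of the 20725 tested genes did, and 0 of 10 passed an adjusted p of 0.05, where 0.00483% did. With the replicate block, 0 of 10 again had a P under 0.05, against 16.8% of all genes, and 0 of 10 passed the adjusted threshold, against 3.23%. Limma-voom and DESeq2, with and without the block, also gave no member a P under 0.05. The log2 fold changes ran from -0.07 for IBA57 to 0.06 for BOLA3, with 8 below 0 and 2 above, a median of -0.02, and a median size of 0.0312 against 0.0696 over all tested genes. The tested genes include some with far fewer counts and were not matched to the members for level. These median sizes therefore cannot be compared directly. The CPM (counts scaled to the size of each library) of the DMSO and S767 libraries overlapped for each of the 10 genes, whereas the groups did not overlap for 9.21% of all tested genes. In bulk RNA, a change in the share of cells that express a gene and a change in its RNA per cell cannot be told apart. CPM is relative to each library, so a change in total RNA that all genes share would not show.

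**Figure D1:**
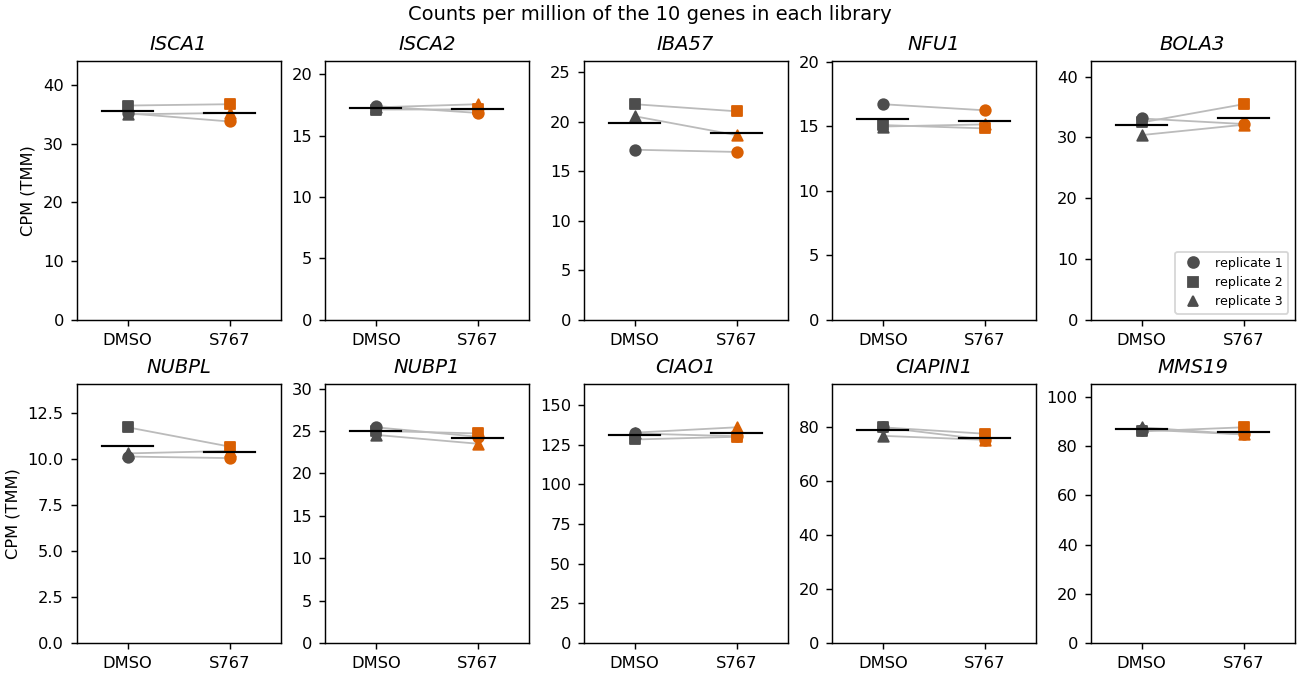
CPM of each gene (vertical axis from 0, TMM-scaled) in the 3 DMSO libraries (grey) and the 3 S767 libraries (orange). Shapes give the replicate number, thin lines join libraries with the same number, and bars are group means, and in each panel the 2 groups overlap.

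The intervals around these differences were narrower with the block, which rests on a pairing read from these same values. With the block, the 95% intervals of all 10 log2 fold changes lay between -0.146 and 0.128, which is from 9.65% lower to 9.25% higher. Without it they lay between -0.310 and 0.187, which is a change of -19.4% to 13.9%. Of these, 8 of 10 stayed within 0.2 of 0, which is a change of -12.9% to 14.9%. The 2 that reached further were IBA57 and NUBPL. The exact permutation test of log2 CPM, which cannot go below 0.1 with 3 libraries a group, gave two-sided p-values from 0.2 to 1 for the 10 genes. The adjusted p of edgeR without the block was 1.00 for each of them, so the adjusted p given for single genes is that with the block.

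**Figure D2:**
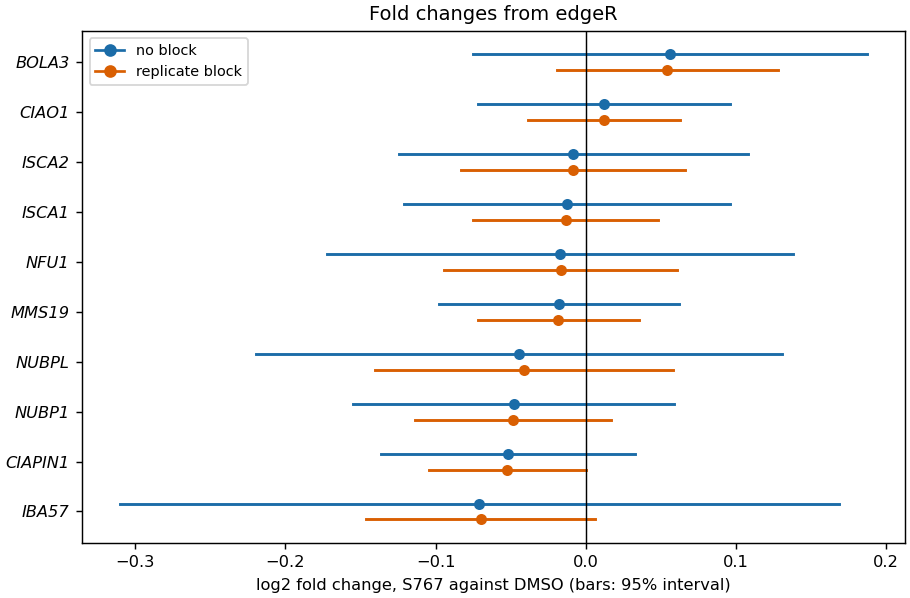
Log2 fold change of each gene, S767 against DMSO, from edgeR without (blue) and with (orange) the replicate block. Bars are 95% intervals, and all of them include 0, with CIAPIN1 closest to excluding it in the fit with the block, from -0.105 to 0.000333.

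The first group of members makes and loads 4Fe-4S clusters in the mitochondrion. ISCA1 (ENSG00000135070.15, chr9:86264546-86283102, minus strand; all positions are from GENCODE 29 on GRCh38) encodes an A-type assembly protein that works with ISCA2 and IBA57. Its CPM was 35.2, 36.5 and 35.0 in DMSO replicates 1 to 3 and 33.8, 36.7 and 35.2 in the S767 replicates. The S767 libraries held both the lowest and the highest value, and the log2 fold change was -0.01 (SE 0.0476, 95% interval -0.121 to 0.096). With the block it was -0.01 (SE 0.0284, edgeR adjusted p = 0.869).

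ISCA2 (ENSG00000165898.14, chr14:74493720-74497106, plus strand), the partner of ISCA1, was measured at 17.4, 17.1 and 17.3 CPM with DMSO and 16.8, 17.1 and 17.5 CPM with S767. The DMSO values lay inside the range of the S767 values, and the log2 fold change was -0.01 (SE 0.0509, and edgeR adjusted p = 0.937 with the block). IBA57 (ENSG00000181873.13, chr1:228165815-228182257, plus strand) encodes the folate-binding partner of the 2 ISCA proteins. It had 17.2, 21.8 and 20.6 CPM in the DMSO libraries and 16.9, 21.0 and 18.6 CPM in the S767 libraries. Replicate 1 was lowest in both groups and replicate 2 highest, and the difference between replicates was larger than that between treatments. Each S767 library was below the DMSO library of its number, by -0.02, -0.05 and -0.14 on the log2 scale. The log2 fold change was -0.07 both without the block (SE 0.105) and with it (SE 0.0352, edgeR adjusted p = 0.344).

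NFU1 and BOLA3 act at the last step, handing 4Fe-4S clusters to lipoyl synthase and respiratory chain proteins. NFU1 (ENSG00000169599.12, chr2:69395750-69437628, minus strand) had 16.7, 15.1 and 14.98 CPM with DMSO and 16.2, 14.8 and 15.1 CPM with S767. Replicate 1 was again set apart, here as the highest of both groups, and the log2 fold change was -0.02 (SE 0.0679, and edgeR adjusted p = 0.871 with the block). BOLA3 (ENSG00000163170.12, chr2:74135398-74147994, minus strand) had 33.1, 32.5 and 30.4 CPM with DMSO and 32.2, 35.5 and 32.1 CPM with S767. It was lower with S767 in replicate 1 and higher in replicates 2 and 3, by -0.04, 0.13 and 0.08 on the log2 scale. Its log2 fold change was 0.06 (SE 0.0575) and with the block 0.05 (SE 0.0339, edgeR adjusted p = 0.473). In the fit with the block and without replicate 1 of both groups, 2034 of 20629 genes passed the adjusted threshold. There the blocked value of BOLA3 was 0.10 (edgeR adjusted p = 0.0393), past the threshold that it missed with all 6 libraries. It was 0.02 (edgeR adjusted p = 0.952) without replicate 2 of both groups and 0.04 (adjusted p = 0.771) without replicate 3. In the fit without the block, leaving out S767 replicate 2 alone brought BOLA3 to 0.0073.

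NUBPL (ENSG00000151413.17, chr14:31489956-31861224, plus strand) encodes a mitochondrial P-loop protein required to assemble respiratory complex I. It had 10.1, 11.7 and 10.3 CPM with DMSO and 10.1, 10.7 and 10.4 CPM with S767. Replicate 2 was the highest of both groups, and the log2 fold change was -0.04 (SE 0.0766, and edgeR adjusted p = 0.727 with the block). Of the 6 mitochondrial members, BOLA3 alone had a fold change above 0.

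The cytosolic machinery starts with NUBP1 (ENSG00000103274.11, chr16:10743786-10769351, plus strand), a P-loop scaffold on which cytosolic clusters form. It had 25.45, 25.03 and 24.56 CPM with DMSO and 24.3, 24.7 and 23.5 CPM with S767. The S767 library was the lower of each numbered pair, but the groups overlapped, with a log2 fold change of -0.05 (SE 0.0468, and edgeR adjusted p = 0.464 with the block). CIAPIN1 (ENSG00000005194.15, chr16:57428169-57447528, minus strand), also called anamorsin, passes electrons to the machinery from the reductase NDOR1. It had 80.0, 80.0 and 76.9 CPM with DMSO and 75.5, 77.7 and 75.4 CPM with S767. Again the S767 library was lower in all 3 pairs, while the highest S767 value exceeded the lowest DMSO value. The log2 fold change was -0.05 (SE 0.0370), and with the block -0.05 (SE 0.0242, edgeR adjusted p = 0.302).

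CIAPIN1 had the lowest P of the 10 genes in edgeR both without and with the block. Its TPM was 60.22, 58.95 and 59.25 with DMSO and 58.19, 55.82 and 55.96 with S767, so that on this scale the groups did not overlap, as for 7.86% of all tested genes. The limma test on log2(TPM + 1) gave a difference of -0.07 (adjusted p = 0.932), with an unadjusted value under 0.05, as for 1062 of 20725 tested genes. NUBP1, CIAPIN1 and IBA57 were the 3 members lower with S767 in all 3 pairs, a pattern shown by 17.8% of all tested genes. None was higher in all 3, against 19.9% of all genes.

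The last 2 members belong to the complex that hands clusters to cytosolic and nuclear proteins. CIAO1 (ENSG00000144021.3, chr2:96266132-96273349, plus strand), a WD-repeat protein of this targeting complex, had 132, 128 and 133 CPM with DMSO and 130, 130 and 136 CPM with S767. The ranges of the 2 groups overlapped, and the log2 fold change was 0.01 (SE 0.0367, and edgeR adjusted p = 0.856 with the block). MMS19 (ENSG00000155229.21, chr10:97458324-97498794, minus strand), which brings DNA polymerases and helicases to the complex, had 86.8, 86.1 and 87.7 CPM with DMSO and 84.8, 87.7 and 84.9 CPM with S767. Replicate 2 was higher with S767 and the others lower, and the log2 fold change was -0.02 (SE 0.0351, and edgeR adjusted p = 0.784 with the block).

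The replicate number accounted for more of the spread of most members than the treatment did. It held more of the variance of log2 CPM across the 6 libraries than treatment and residual spread together for 6 of 10 genes, from 54.4% for BOLA3 to 94.9% for NFU1, with 90.6% for IBA57 and 81.5% for ISCA1. The treatment held most for CIAPIN1 (54.2%) and NUBP1 (45.8%). For the other 8 genes its share was 19.8% or less. No share over all tested genes is given for this split, so it is not shown to be particular to the members. The replicate number has more levels than the treatment, which by itself gives it a larger share. Libraries with the same number also deviated together across well expressed genes in general.

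Compared per transcript length, the members spanned a 26.4-fold range in the DMSO libraries. BOLA3 was the highest at 132 ± 4.601 TPM (SD, n = 3), followed by CIAPIN1 at 59.5 ± 0.664, MMS19 at 52.1 ± 2.46 and CIAO1 at 48.6 ± 1.81 TPM. NUBP1 at 33.2 ± 0.528, ISCA1 at 27.997 ± 0.292, NFU1 at 27.4 ± 1.65 and ISCA2 at 22.6 ± 0.367 TPM formed the middle of the order. NUBPL at 5.49 ± 0.215 and IBA57 at 5.01 ± 0.301 TPM were the lowest. The libraries of neighbours overlapped for MMS19 and CIAO1, for ISCA1 and NFU1, and for NUBPL and IBA57, so the order within these pairs was not resolved. The mean TPM of the S767 libraries gave the same order, from 136 ± 4.02 for BOLA3 to 4.71 ± 0.193 for IBA57 (SD, n = 3). Among all tested genes, IBA57 stood at percentile 52.8 of the mean DMSO level and BOLA3 at 94.8.

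**Figure D3:**
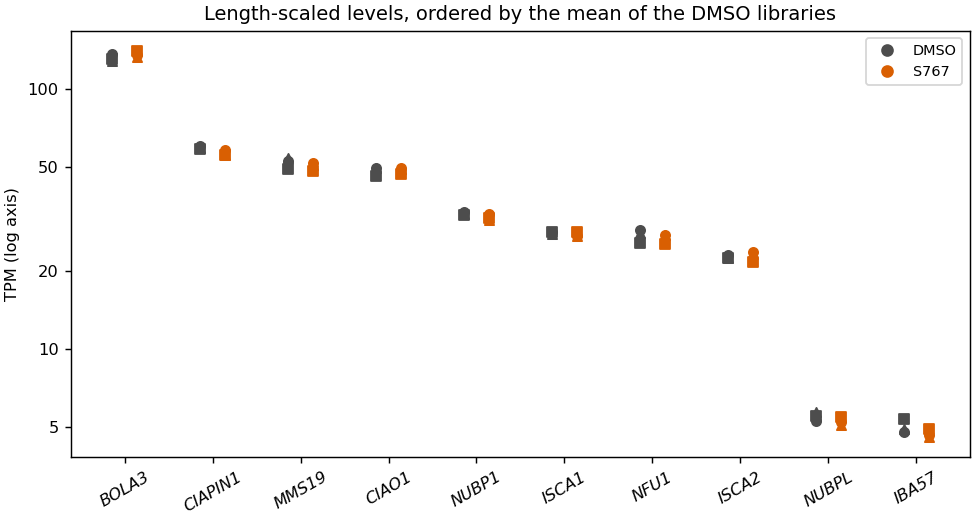
TPM of the 10 genes on a log axis, ordered by the DMSO mean, with DMSO libraries in grey and S767 libraries in orange and circles, squares and triangles for replicates 1, 2 and 3. BOLA3 lies above all others, NUBPL and IBA57 lie lowest, and the order of the means is the same with S767.

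The transcripts that the counts came from were described by the expression-weighted length that RSEM estimates for each gene. The groups did not overlap for 1 of 10 members, against 5.27% of all tested genes. This was ISCA2, at 1186, 1193 and 1213 bases with DMSO and 1138, 1185 and 1162 bases with S767, a difference of -35.9 bases or -2.995% (exact permutation p = 0.1, the smallest this design allows, 0.9 after Benjamini-Hochberg adjustment over the 10 genes). The 4 annotated ISCA2 transcripts run from 489 to 2626 bases. For IBA57 the length ranged more widely, from 4570 to 5240 bases, with replicate 1 shortest in both groups.

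The share of a gene's stranded counts that fell on the opposite strand was low for all 10 genes, from 0.0997% to 2.25%. For 2 of 10 the groups did not overlap, against 6.46% of all tested genes, and both were lower with S767. For ISCA2 it was 0.367%, 0.196% and 0.312% with DMSO and 0.0997%, 0.130% and 0.173% with S767, from only 4 to 14 counts a library. For NUBP1 it was 0.821%, 0.853% and 0.843% with DMSO and 0.787%, 0.517% and 0.729% with S767, from 23 to 54 counts. Both had an exact permutation p of 0.1 (0.5 after Benjamini-Hochberg adjustment over the 10 genes). MMS19 had the highest shares, 1.71% to 2.25%.

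Counts of the members came to 96.1% to 110% of the counts that RSEM estimates, which assigns shared reads. The 13 listed pseudogenes of ISCA1, ISCA2, NFU1, BOLA3 and CIAPIN1 together never exceeded 0.247% of their parent's count, the value for the 5 ISCA1 pseudogenes with 9 to 21 counts a library. These counts leave out reads shared by several genes, and RSEM, which assigns them, gave the pseudogene ISCA1P1 alone 79.2 to 157 counts. On the opposite strand, NUBP1 overlaps TVP23A by 8433 bases (8 to 23 counts a library), NUBPL overlaps a pair of antisense genes by 5141 and 2828 bases (0 to 1 counts), ISCA2 overlaps NPC2 by 458 bases and CIAPIN1 overlaps COQ9 by 104 bases, where fragments from the 2 strands were separated by the stranded counting.

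Of the members, 6 have a neighbour that starts within 1000 bases on the opposite strand. NPC2, a lysosomal cholesterol carrier next to ISCA2, had 21.9, 22.1 and 22.1 CPM with DMSO and 22.4, 23.3 and 24.4 CPM with S767. Its S767 values all lay above the DMSO values, unlike those of ISCA2, but its log2 fold change of 0.08 missed the threshold (SE 0.0503, and edgeR adjusted p = 0.204 with the block). UBTD1, next to MMS19, had 7.18 ± 0.793 CPM with DMSO and 6.58 ± 0.370 with S767 (SD, n = 3), a log2 fold change of -0.12 (SE 0.0978, edgeR adjusted p = 0.266 with the block). COQ9, TMEM127, BOLA3-DT and IBA57-DT, next to CIAPIN1, CIAO1, BOLA3 and IBA57, also passed no adjusted threshold.

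The promoters of the members were read from RefSeq (GRCh38.p14) as windows of 300 bases that span an annotated start of a gene, 14 windows for the 10 genes. These starts are those of RefSeq, and 4 windows, those of ISCA1 and NUBPL and the second of IBA57 and MMS19, lie inside the span that GENCODE 29 gives the gene and miss its first base. The windows had a GC content of 47.3% to 77.0%, against a median of 58.7% over all 35116 windows. The core of the metal response element, to which the zinc-sensing factor MTF1 binds (TGCACNC or TGCGCNC, searched on both strands), was found in 5 of 14 windows, those of IBA57, ISCA1, MMS19 and NUBP1, against 29.6% of all windows. These windows belong to 4 of the 10 genes. The NUBP1 windows overlap and hold the same site, so it is counted in each. IBA57 and MMS19 each have another window without the core. The window of ISCA1 is shown because it holds this core 3 times, marked in capitals (chr9:86282489-86282788, minus strand).
ISCA1 promoter: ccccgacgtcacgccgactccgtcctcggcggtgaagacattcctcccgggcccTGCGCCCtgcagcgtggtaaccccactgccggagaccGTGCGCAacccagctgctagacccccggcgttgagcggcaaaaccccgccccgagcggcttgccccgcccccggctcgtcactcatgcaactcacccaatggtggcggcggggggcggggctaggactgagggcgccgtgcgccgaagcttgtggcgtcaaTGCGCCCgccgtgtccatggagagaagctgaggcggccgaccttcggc
The palindrome of NRF1, a regulator of nuclear genes for mitochondrial proteins (GCGCA followed by its reverse complement), was in 1 of 14 windows, against 1.24% of all. It lies in the second MMS19 window, shown with the palindrome in capitals (chr10:97498373-97498672, minus strand).
MMS19 promoter: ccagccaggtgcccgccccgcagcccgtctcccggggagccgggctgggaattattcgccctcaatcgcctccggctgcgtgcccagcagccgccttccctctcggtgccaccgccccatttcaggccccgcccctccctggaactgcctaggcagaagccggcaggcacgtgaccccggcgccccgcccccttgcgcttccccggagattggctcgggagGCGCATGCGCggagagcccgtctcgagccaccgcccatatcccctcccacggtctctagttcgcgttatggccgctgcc
The core of ETS factor sites (CCGGAAG, both strands) was in 1 of 14 windows, that of CIAO1, against 10.3% of all. A match gives only the presence of these letters in the window.

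The rest of the iron-sulfur pathway was followed in 4 further lists of 55 genes, of which 51 were tested. FDX2, BOLA2, BOLA2B and MOCS1 were not, for low counts. In edgeR without the block, 3 of 51 had a P under 0.05, where 3.53% of all tested genes did. These were FDXR, ISCU and EXO5, all 3 higher with S767. None of the 51 passed the adjusted threshold, where 0.00483% of all did. With the block 8 of 51 had a P under 0.05, 6 higher and 2 lower, where 16.8% of all tested genes did, and 3 of 51 passed the adjusted threshold, all higher, where 3.23% of all did. Of 12 tested genes of core assembly and export, 1 passed with the block, beside the same 3.23% of all genes. This was FDXR, the reductase that supplies electrons through ferredoxin to cluster assembly, with 39.7, 38.5 and 37.0 CPM with DMSO and 47.2, 49.9 and 51.6 CPM with S767. All S767 values exceeded all DMSO values, and the log2 fold change was 0.37 (SE 0.0492, edgeR adjusted p = 0.377, and 0.000359 with the block). The scaffold gene ISCU had 53.4 ± 1.51 CPM with DMSO and 57.1 ± 1.39 with S767 (SD, n = 3), a log2 fold change of 0.10 (SE 0.0411, edgeR adjusted p = 0.107 with the block). HSPA9, the chaperone that releases clusters from ISCU, was the gene of this list lower with the block at a P under 0.05, with a log2 fold change of -0.07 (SE 0.0233, edgeR adjusted p = 0.151), and is named here after its value was seen.

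The other genes of the cytosolic pathway numbered 9, of which 7 were tested and 0 passed an adjusted threshold in edgeR with or without the block. One, GLRX3, a cytosolic cluster-binding glutaredoxin named here after its value was seen, had a P under 0.05 with the block, with a log2 fold change of -0.07 (SE 0.0235, edgeR adjusted p = 0.114). Of 11 tested mitochondrial client genes, which encode enzymes that carry clusters, 0 passed a P of 0.05 in edgeR either way. Over all tested genes, 3.53% did without the block and 16.8% with it. Of 21 cytosolic and nuclear client genes, 2 passed the adjusted threshold with the block, again beside 3.23% of all genes. ACO1, the cytosolic aconitase that becomes an iron-regulatory protein when it lacks its cluster, had 31.5, 36.4 and 33.0 CPM with DMSO and 34.5, 38.3 and 36.6 CPM with S767. Its groups overlapped, each S767 library was above the DMSO library of its number, and the log2 fold change was 0.12 (SE 0.0284, edgeR adjusted p = 0.0412 with the block). The call for ACO1 was lost with the block in DESeq2 (adjusted p = 0.0514), with unscaled library sizes (0.0519 in edgeR), on RSEM counts (0.113) and without replicate 2 or 3 of both groups (0.326 and 0.164). BRIP1, a DNA helicase of interstrand crosslink repair, had 32.6, 35.5 and 41.9 CPM with DMSO and 36.4, 39.5 and 44.2 CPM with S767. It showed the same ordering within pairs, with a log2 fold change of 0.13 (SE 0.0285, edgeR adjusted p = 0.0306 with the block). The call for BRIP1 was lost with the block on RSEM counts (edgeR adjusted p = 0.0565) and without replicate 2 of both groups (0.433). EXO5, a DNA exonuclease with a cluster, had 7.06 ± 0.327 CPM with DMSO and 8.05 ± 0.183 with S767 (SD, n = 3), a log2 fold change of 0.19 (SE 0.0724, edgeR adjusted p = 0.0769 with the block).

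**Figure D4:**
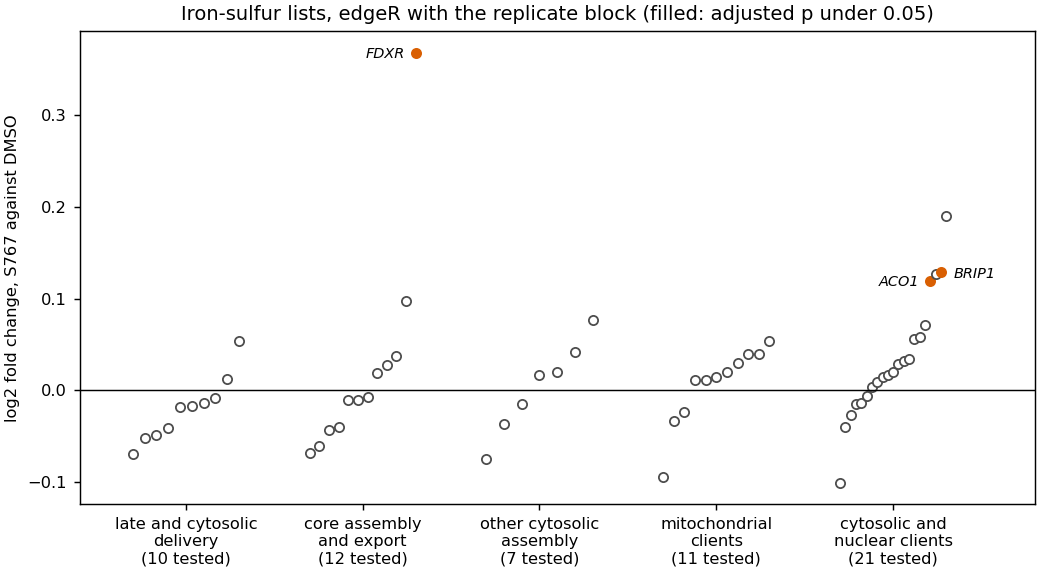
Log2 fold change of each tested gene, S767 against DMSO, from edgeR with the replicate block (vertical axis), by list (horizontal axis), sorted within a list. Filled points passed an adjusted p of 0.05, and these are FDXR, ACO1 and BRIP1, while the 10 delivery genes lie between -0.07 and 0.05.

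The median log2 fold changes of the 4 lists without the block were -0.01 for core assembly and export, 0.02 for the other cytosolic genes, 0.01 for mitochondrial clients and 0.02 for cytosolic and nuclear clients, beside -0.02 for the 10 delivery genes and -0.000241 for all tested genes. In 6 genes of these lists, FDX2, BOLA2, BOLA2B, NDUFV2, RTEL1 and MUTYH, the gene count was at most 8.91% of the RSEM estimate in each library, so their counts were uncertain. On the RSEM counts 0 of these 6 passed an adjusted p of 0.05 in edgeR with the block or had a P under 0.05. None of the 10 delivery genes was affected in this way.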

How the data were processed

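Polyadenylated RNA was sequenced from 3 DMSO and 3 S767 libraries. The authors deposited counts per gene for each strand, not normalized, and RSEM tables with expected counts, transcript lengths and TPM. The submitters' processing notes name STAR 2.7.1a, RSEM 1.2.28 and GRCh38, and the annotation release is not given in the sources used here. Counts of the strand that the library kit reads were used (the other strand is the opposite-strand share). Summary lines that name no gene held 20.3% of fragments and were left out. Such fragments include reads shared by several genes, which lowers the counts of genes with near-identical copies.

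Samples were grouped by treatment as labelled. The members and the gene lists were chosen with earlier results of these data known. After filterByExpr (minimum count 10) and TMM scaling, 20725 genes were compared in edgeR 4.0.16 (R 4.3.3) with glmQLFTest, and p-values were adjusted by Benjamini-Hochberg. The SE is the log2 fold change over the root of F. For single genes, log2 CPM (prior count 2) was also compared by exact permutation, two-sided. Alternatives were limma-voom (limma 3.58.1, the study's method), DESeq2 1.42.0, library size alone, no filter on low counts, RSEM counts rounded to whole numbers, TPM on a log2 scale, the replicate number as a block, and leaving out libraries. The numbers pair the libraries by their values alone (same-number correlations of 0.754 to 0.872), not by the labels. No label says that libraries came from separate cultures, so p-values measure the spread between these libraries. Besides the 10 members, genes of the 4 lists were named where P was under 0.05 without the block or the adjusted p under 0.05 with it, and neighbours where they start within 1000 bases. Intervals cover the spread between libraries only.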

Additional observations from a re-analysis of the deposited data

How the results depend on the processing

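Over 24 alternatives, the log2 fold changes of the 10 genes ran from -0.16 to 0.10, and 223 of 240 values kept their direction and their side of the threshold. Fold changes that turned sign were all small. With the replicate block and without replicate 1 of both groups, ISCA1 was 0.0087 and ISCA2 0.011, without replicate 2 of both NUBPL was 0.0013, and without replicate 3 of both CIAO1 was -0.0019. ISCA2 was 0.016 on log2(TPM + 1) and 0.017 on log2(TPM + 0.1). Leaving out 1 library gave a range of -0.043 to 0.018 for ISCA1, -0.025 to 0.0063 for ISCA2, -0.16 to 0.0024 for IBA57, -0.056 to 0.036 for NFU1, -0.083 to 0.024 for NUBPL and -0.0095 to 0.024 for CIAO1, which crossed 0, and 0.0073 to 0.082 for BOLA3, -0.064 to -0.028 for NUBP1, -0.071 to -0.042 for CIAPIN1 and -0.034 to -0.0090 for MMS19, which did not.

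Of the 10 genes, 1 passed an adjusted p of 0.05 under an alternative, BOLA3 with the block and without replicate 1 of both groups. In that fit 2034 of 20629 genes passed. P was under 0.05 for 1 gene, CIAPIN1, when the block was used on unscaled library sizes, on log2(TPM + 1) and on log2(TPM + 0.1), for 2, IBA57 and CIAPIN1, on RSEM counts with the block, and for 2, IBA57 and BOLA3, with the block and without replicate 1 of both. Over all genes, P was under 0.05 for 3454 of 20725 with the block on unscaled library sizes. It was under 0.05 for 1062 and 1077 of 20725 on the 2 TPM scales. With the block the number was 3322 of 18851 on RSEM counts and 4362 of 20629 without replicate 1 of both. Leaving out 1 library gave 0 to 0 of the 10 genes by either threshold. Lengths that did not overlap between groups numbered 1 to 2 and opposite-strand shares 2 to 4 without 1 library. With fewer libraries, groups fail to overlap more readily. The shares of all genes, 5.27% and 6.46%, are for all 6 libraries and cannot be set beside these counts.

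Over all genes, the 1 gene past an adjusted p of 0.05 became 670 with the replicate block, 25 with DESeq2, 9 with no limit on low counts, 0 on either TPM scale (1062 and 1077 with an unadjusted P under 0.05 by limma), 609 with limma-voom and the block, 630 with DESeq2 and the block, 617 with unscaled library sizes and the block, and 394 on RSEM counts with the block. Without replicate 1, 2 or 3 of both groups the block gave 2034, 24 and 636, and leaving out 1 library gave 1 to 2. Of the other iron-sulfur genes, 1 passed with DESeq2 and with no limit, 3 with the block and with limma-voom and the block, 2 with DESeq2 or library size alone and the block, 1 on RSEM counts with the block, and 10, 1 and 2 with the block and without replicate 1, 2 or 3. Their 3 with a P under 0.05 became 8 with the block, with limma-voom, library size alone or RSEM counts and the block and without replicate 3 of both, 7 with DESeq2 and the block, 17 without replicate 1 of both, and 1 to 4 without 1 library. Over all genes, P was under 0.05 for 732 of 20725 in the main fit and 3475 once the block was added. Fits that kept the block gave 3428 by limma-voom, 3454 by library size alone, 2109 by DESeq2 and 3322 of 18851 by RSEM counts. Dropping replicate 1 or 3 of both groups gave 4362 of 20629 and 2791 of 20801, and dropping 1 library gave 534 to 1033. The number for all genes thus rose with the block as well. The cause of these differences between settings was not tested. Some pseudogene counts were 0 in a library and the opposite-strand count of ISCA2 fell to 4, so values from them rest on few counts.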
